A study of Mus musculus with 44 samples.

Results

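The genomic sites bound by wild-type Snai1 were compared with those bound by a Snai1 mutant in HPC7 cells, a mouse blood progenitor line grown with stem cell factor. Members were all peaks of the 2 deposited lists, 2929 for the wild-type and 12037 for the mutant construct, which together are 14966 of the 15103 Snai1 peaks of the series. The other 137 peaks came from cells with the empty vector. Each list stands for 4 technical replicates of 1 construct, so no comparison between the lists has a replicate check, and the intervals below cover counting error only.

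All 3 groups of cells carried an MSCV-IRES-GFP retrovirus, with no insert, with wild-type Snai1 cDNA or with the mutant cDNA, and were sorted for GFP a week after transduction and expanded. In the mutant protein the phenylalanine at residue 5 is replaced by alanine, a change that impairs its contact with Lsd1, per the labels. Snai1 was thus expressed from the vector on top of whatever the cells make themselves, and the labels name no clone or separate transduction. The series also holds 3 libraries each of H3K4me1 and H3K4me2 per construct and 2 IgG libraries from wild-type Snai1 cells, counted in windows around gene starts.

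Snai1 is a zinc finger repressor of the Snail family, known for silencing epithelial genes when cells take on a migratory, mesenchymal state. Its zinc fingers bind an E-box with the core CAGGTG, read CACCTG on the opposite strand. Its N-terminal end, the SNAG domain, docks the histone demethylase Lsd1 (gene Kdm1a), which removes methyl groups from H3K4me1 and H3K4me2 and which Gfi1 and Gfi1b recruit in blood cells in the same way. The substituted residue lies in the SNAG domain, far from the zinc fingers.

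The letters under 4 strong promoter peaks are shown because they hold the E-box near the summit, the base with the most fragments. Nfkbil1 and Ccdc181 had a peak in both lists, Gtpbp2 and Fars2 in the mutant list alone. Each line gives the 250 bases before the gene's start (RefSeq, GRCm38.p6), 5′ to 3′ on the gene's strand, with the E-box in capitals.
Nfkbil1: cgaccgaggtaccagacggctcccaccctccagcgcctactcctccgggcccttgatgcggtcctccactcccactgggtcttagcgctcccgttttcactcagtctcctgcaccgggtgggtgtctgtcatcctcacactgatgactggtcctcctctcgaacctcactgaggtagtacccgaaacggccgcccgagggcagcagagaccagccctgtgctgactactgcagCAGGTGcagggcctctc
Ccdc181: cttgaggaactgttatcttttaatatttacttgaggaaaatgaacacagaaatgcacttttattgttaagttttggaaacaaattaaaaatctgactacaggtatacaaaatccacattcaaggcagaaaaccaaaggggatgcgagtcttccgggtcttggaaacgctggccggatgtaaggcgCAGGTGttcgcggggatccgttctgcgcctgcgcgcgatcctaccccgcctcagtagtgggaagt
Gtpbp2: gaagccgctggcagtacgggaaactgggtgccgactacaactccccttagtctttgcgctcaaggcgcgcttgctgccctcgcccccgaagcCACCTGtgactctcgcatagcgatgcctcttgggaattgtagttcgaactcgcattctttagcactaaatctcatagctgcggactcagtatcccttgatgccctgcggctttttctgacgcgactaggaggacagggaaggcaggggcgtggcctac
Fars2: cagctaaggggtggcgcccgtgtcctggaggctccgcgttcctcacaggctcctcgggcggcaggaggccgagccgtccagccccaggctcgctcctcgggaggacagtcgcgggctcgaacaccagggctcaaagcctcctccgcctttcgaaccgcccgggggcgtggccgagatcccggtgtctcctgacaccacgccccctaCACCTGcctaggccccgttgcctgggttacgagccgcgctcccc
The stretches are chr17:35236482-35236731 (minus strand, Nfkbil1), chr1:164275348-164275597 (plus, Ccdc181), chr17:46160782-46161031 (plus, Gtpbp2) and chr13:36117393-36117642 (plus, Fars2). Counted from the 5′ end of each, the box began 5 bases before the strongest summit at Ccdc181, 17 at Gtpbp2, 35 at Nfkbil1 and 41 at Fars2. At Nfkbil1, which encodes a protein related to NF-kappa-B inhibitors, that summit lay just past the printed stretch, after the start. Promoters of Hspa4l, Fam193a and Ccdc77 overlap 3 other named peaks, the last of them named for the neighbouring gene Kdm5a. These promoters hold no CAGGTG in their 300 bases, and the summits lay outside those windows. The promoter of Kdm5a itself was not searched.

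Mutant Snai1 had 4.11 times as many peaks as wild type, and most of the wild-type peaks were among them. A mutant peak overlapped 2486 of 2929 wild-type peaks (84.9%, exact Clopper-Pearson 95% interval 83.5 to 86.2%), while a wild-type peak overlapped 2493 of 12037 mutant peaks (20.7%, 20.0 to 21.5%). This left 443 wild-type-only and 9544 mutant-only peaks. Empty-vector peaks overlapped 91 wild-type peaks (3.11%) and 116 mutant peaks (0.964%). Among mutant-only peaks the count was 36 of 9544.

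The depth behind the lists was read from the peaks themselves, since fold and p-value together fix the number of fragments at a summit and the local background. Whole numbers of fragments came out for 99.93% of wild-type and 99.98% of mutant peaks, within a tolerance of 0.001 in -log10 p, once wild-type pile-ups were taken as scaled by 0.839. The most common background was 2.46 fragments per base for wild type, 2.43 for the mutant and 1.81 for the empty vector. The 2 Snai1 lists thus had nearly the same coverage. With mutant peaks rescored at the wild-type scaling, 11812 still reached the lowest -log10 p in the wild-type list (4.70), 4.03 times the wild-type number. At the 1st percentile of the wild-type -log10 p (5.73) the count was 10729. Only peaks already in the mutant list could be rescored.

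Lists of unequal length were next cut to equal length, ranking each by its own -log10 q. At 2929 peaks each, 1491 wild-type peaks (50.9%, 49.1 to 52.7%) had a partner among the mutant peaks. Shorter lists gave 41.0% at 100 peaks each, 48.0% at 250, 51.0% at 500 and 50.3% at 1000. The lists were unlike in strength even so: the mutant peak at rank 2929 had a -log10 q of 14.9, the last wild-type peak 1.42, and the median fold over local background was 9.18 in these mutant peaks against 6.08 in wild type.

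Overlap fell with rank on both sides when each list was set against the other at equal length. Both sides count the same overlapping pairs there, so their total shares are nearly equal by construction. A mutant peak among the first 2929 overlapped 87.4% of wild-type ranks 1 to 500 (84.2 to 90.2%) and 28.4% of ranks 2501 to 2929 (24.2 to 33.0%). For mutant peaks the shares with a wild-type peak were 87.6% (84.4 to 90.4%) and 27.3% (23.1 to 31.8%). Against the whole mutant list, which is 4.11 times as long, wild-type ranks went from 97.8% to 76.0%. Of the 100 best peaks, 99 wild-type and 98 mutant peaks were in the other list at some rank.

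**Figure D1:**
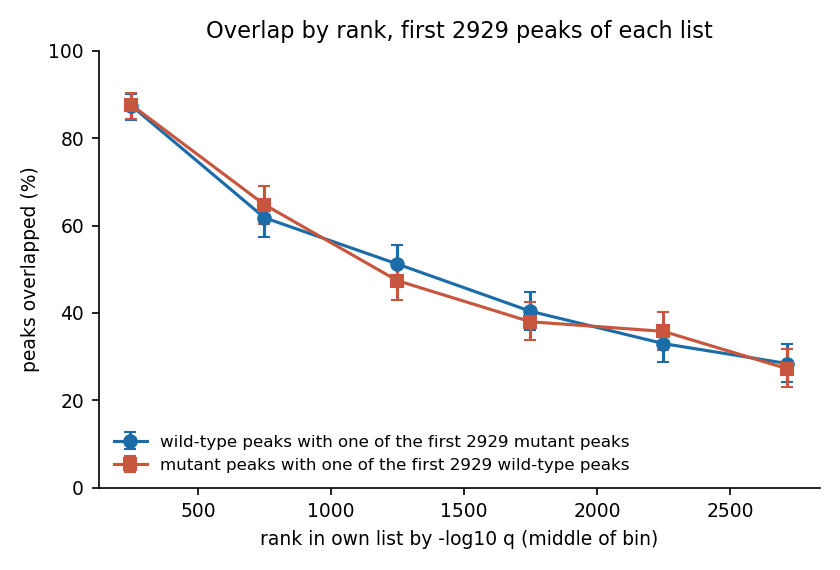
Share of peaks (%) overlapped by one of the first 2929 peaks of the other construct, against rank by -log10 q in bins of the first 2929 peaks of each list. Bars are exact 95% intervals; wild-type peaks go from 87.4% to 28.4% and mutant peaks from 87.6% to 27.3%.

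Sites at the top of both lists lay at genes of varied function. The best mean rank fell to a site upstream of Atp13a2, a lysosomal transporter (chr4:140983432-140983931 in the mutant list), with a fold of 31.9 in wild type and 55.1 in the mutant. A site inside Rad52, a DNA recombination gene (chr6:119918730-119919304), had 25.6 and 45.5, and 1 inside Sdc4, a heparan sulfate proteoglycan of the cell surface (chr2:164441054-164441748), 22.9 and 43.0. Inside Hspa4l, a chaperone gene (chr3:40745558-40746177), the folds were 25.3 and 45.8. Of the 10 best sites, 8 were higher in the mutant, with Klf16, Ccdc181 and 2 sites in or beyond Prcp making up the rest. The exceptions were a site 5298 bases outside Disp3, with 60.9 and 32.4, and Nfkbil1, with 33.8 in wild type and 26.1 in the mutant. At Nfkbil1 the summit held 160 fragments in wild type and 181 in the mutant, over local backgrounds of 3.57 and 5.97, so relative to mean coverage the mutant was 1.15 times higher there.

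Fold at matched sites was mostly higher with the mutant. At 2477 sites present in both lists, the median fold was 6.34 in wild type and 7.87 in the mutant. The log2 ratio of wild-type to mutant fold had a median of -0.29 (quartiles -0.75 and 0.16), and wild type was higher at 833 sites (33.6%). A 2-fold or larger difference was found at 54 sites toward wild type and at 367 toward the mutant. Fold is relative to each list's own background. Summit fragments over mean coverage gave a median of -0.30. A matched site had to be called in both lists, and the wild-type list is the shorter, which sets which sites could enter. Among the 1482 sites in both lists at equal length the median was -0.61, but that cut keeps mutant peaks down to a -log10 q of 14.9 and wild-type peaks down to 1.42, so by its construction it removes sites with low mutant signal.

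**Figure D2:**
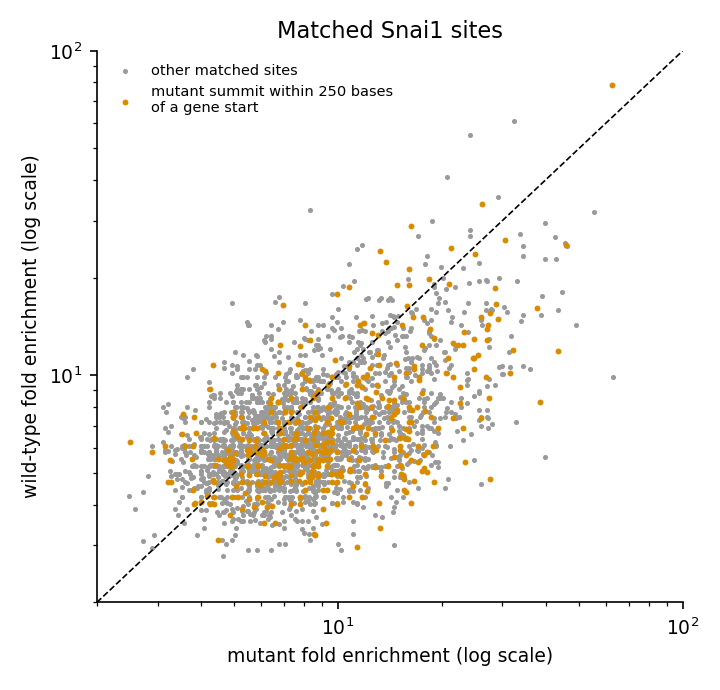
Fold enrichment over local background at 2477 matched sites, mutant (x axis) against wild type (y axis), both on log scales; each point is a site and the dashed line marks equal fold. Most points lie below the line, and wild type is higher at 833 sites.

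Summits at these sites nearly coincided, with a median gap of 31 bases and 66.9% within 50 bases. Folds were loosely related across sites (Spearman 0.43, n = 2477). Sites share libraries and are not replicates.

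Some strong sites went to opposite ends. Toward wild type, a site inside Lingo1, a leucine-rich repeat receptor component (chr9:56738258-56738629 in the mutant list), had a fold of 32.3 in wild type and 8.28 in the mutant, or 122 and 32 summit fragments. Near the start of Scamp4, a secretory membrane protein (chr10:80603114-80603427), it was 16.8 and 4.93. Tulp4, with 17.5 and 6.74, and sites whose nearest genes were Cldn4, Pgp and the non-coding Gm30588 followed, with fold ratios of 2.57 to 2.67. The local background was higher in the mutant at all 6 sites, at 2.99 to 5.97 fragments against 2.46 to 3.17 in wild type. In summit fragments over mean coverage, wild type was 3.77 times higher at Lingo1, 2.28 at Scamp4, 1.92 at Gm30588, 1.74 at Pgp, 1.61 at Tulp4 and 1.39 at Cldn4.

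Toward the mutant, a site inside Cc2d2b (chr19:40809799-40810307) had a fold of 5.61 in wild type and 39.9 in the mutant. The highest-ranked mutant peak lay at the edge of Hmbox1, a homeobox gene (chr14:64949599-64950247), with 9.90 and 62.7. The start of Kdm5a, an H3K4 demethylase (chr6:120363811-120364548), had 8.27 and 38.5, or 29 and 131 fragments over backgrounds of 2.46 and 2.43. Upstream of Osgin1, a stress-response gene, the values were 4.64 and 26.0. Local backgrounds differed at some of these sites: at Cc2d2b it was 9.53 fragments in wild type and 2.54 in the mutant, with 59 and 140 summit fragments. Over mean coverage, the mutant was 4.57 times higher at Kdm5a, 2.402 at Cc2d2b and 2.095 at Osgin1, against fold ratios of 4.65, 7.10 and 5.61. At Hmbox1 the ratios were 4.42 and 6.33, but the mutant fragment number there was not recovered within the tolerance, so 4.42 is uncertain.

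Peaks of 1 list alone were weaker than shared ones. The median fold was 5.53 in wild-type-only against 6.33 in shared wild-type peaks, and 5.25 in mutant-only against 7.85 in shared mutant peaks. The strongest wild-type-only peak lay past Iqcn (chr8:70720059-70720414, fold 17.3). It was followed by peaks near Med27, a Mediator subunit (14.3), inside Cadm3, a cell adhesion gene (14), and near Wasf3, an actin regulator (13.8). Kif1c, Cdh23, Arrb2 and Slc25a12 had 12.1, 11.8, 11.3 and 10.5. None of these 8 reached the fold of the strongest mutant-only peak, inside Bicdl1 (chr5:115715988-115716960, fold 27.4). Next among mutant-only peaks came the start regions of Gtpbp2, a GTPase of ribosome rescue (22.8), and Fars2, the mitochondrial phenylalanyl-tRNA synthetase (25.4), whose letters are printed above, and Fam193a (23.0). Commd7, Cdon, Psen2 and the non-coding A830029E22Rik had 17.0 to 22.3.

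Mutant peaks sat closer to gene starts than wild-type peaks, above all within 250 bases. In that window lay 449 of 2928 wild-type summits (15.3%, 14.05 to 16.69%) and 850 of 2928 mutant summits at equal list length (29.0%, 27.4 to 30.7%). From 250 to 1000 bases the order turned, with 21.9% of wild-type and 14.7% of mutant summits. Within 5 kb the shares were 56.9% and 59.0%, with overlapping intervals. A gene held 65.9% of summits in both.

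Peaks without a partner in the other list at equal length differed more. Within 250 bases of a start lay 153 of 1438 such wild-type summits (10.6%, 9.09 to 12.3%) and 532 of 1444 such mutant summits (36.8%, 34.4 to 39.4%). Against the whole other list the shares were 23 of 443 wild-type-only summits (5.19%, 3.32 to 7.69%) and 2731 of 9531 mutant-only summits (28.7%, 27.7 to 29.6%), but those 2 sets were left over from other lists of unequal length. Shared wild-type summits had 17.1%. Against starts with a known strand, 16.2% of mutant-only summits fell in the 250 bases just upstream and 9.05% in those just downstream. For wild-type-only summits these were 1.39% and 2.55%, with 10.9% at over 250 to 1000 bases downstream.

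**Figure D3:**
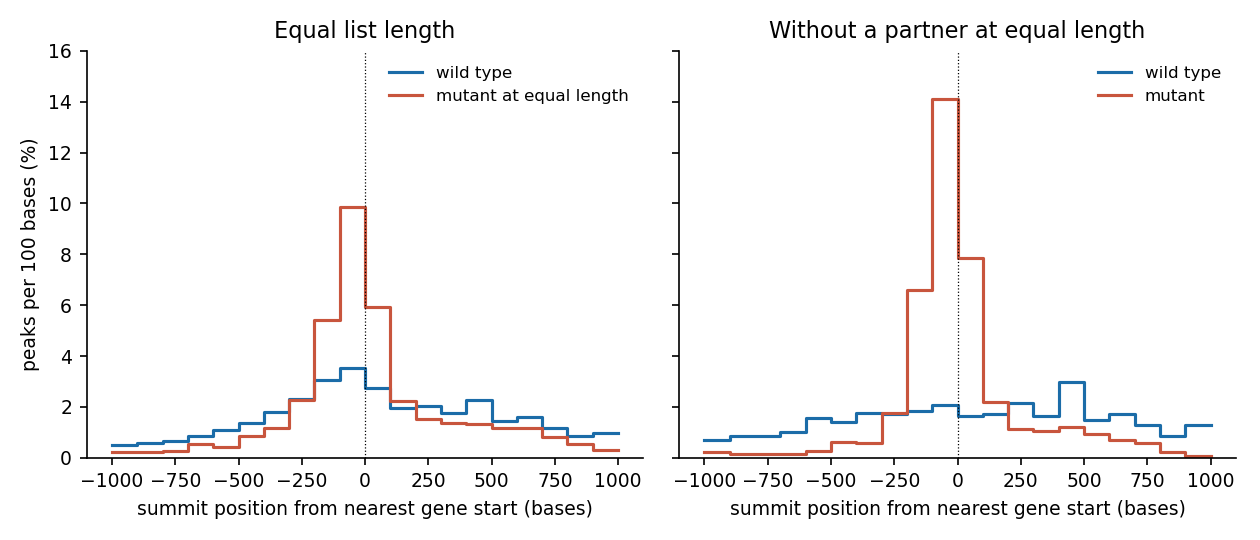
Position of summits against the nearest gene start (x axis, bases, negative upstream) as percent of peaks per 100 bases (y axis), at equal list length (left) and for the peaks among these without a partner (right). Mutant peaks pile up in the 100 bases before the start, with 9.87% at equal length against 3.53% for wild type, over the 2858 peaks of each on chromosomes with a start in the RefSeq table, and 14.11% against 2.07% on the right (1410 and 1404 peaks).

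The surplus of mutant signal next to starts was also seen within matched sites, counting only starts of genes with a promoter sequence. The median log2 ratio of wild-type to mutant fold was -0.53 where the mutant summit lay within 100 bases of a start (198 sites), -0.41 at 101 to 250 bases (206 sites), -0.22 at 251 to 500 bases (201 sites) and -0.17 at 501 to 1000 bases (220 sites). At 5 to 50 kb it was -0.29 (926 sites). Median wild-type fold was nearly flat over these classes, from 6.08 to 6.49. Mutant fold went from 9.31 next to the start to 7.19 at 501 to 1000 bases and was 8.18 beyond 50 kb.

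The E-box of Snai1 was found in like shares of the strongest promoter peaks of both lists and was scarcer further down the mutant list. CAGGTG was searched on both strands of 32817 promoters of 300 bases each and was found in 20.2% of all. Among promoters that held a summit, it was found in 83.6% for wild-type ranks 1 to 500 (61 of 73, 73.0 to 91.2%) and in 83.5% for mutant ranks 1 to 500 (106 of 127, 75.8 to 89.4%). In mutant promoters the share was 64.4% for ranks 501 to 1000, 44.0% for 1001 to 2000 and 30.0% for 2001 to 2929. It was 20.8% for ranks 2930 to 5000 and 16.4% for 8001 to 12037, at or below the level in all promoters. Promoters without a summit but with the GC content of the middle range of mutant promoters had 23.8% (22.7 to 24.9%). For wild type it was 67.0% for ranks 501 to 1500 and 44.1% for 1501 to 2929.

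**Figure D4:**
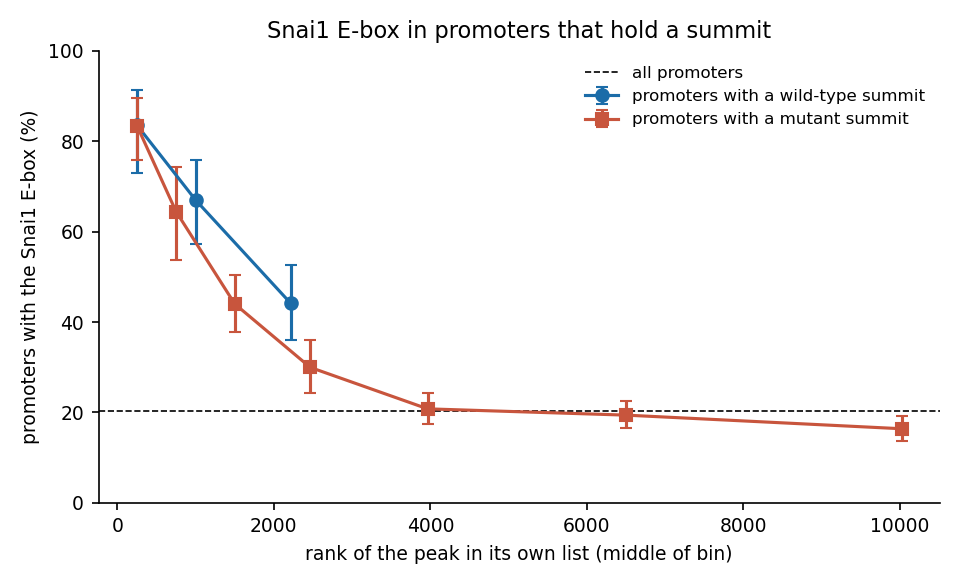
Share of summit-holding promoters with CAGGTG (y axis, %) against the rank of the peak in its list (x axis, middle of bin), with exact 95% intervals; the dashed line is the share in all promoters, 20.2%. Both lists begin near 83.5% and the mutant list reaches the dashed line after rank 2929.

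At equal list length the box was in 60.5% of wild-type promoters (196 of 324, 54.9 to 65.8%) and 48.7% of mutant promoters (348 of 714, 45.01 to 52.47%). Of peaks with -log10 q of at least 10, 1190 were in the wild-type list and 5081 in the mutant list. With these mutant peaks cut to the 1190 best, the shares were 76.3% for wild type and 74.0% for the mutant, with overlapping intervals. For peaks without a partner at equal length they were 40.4% for wild type (42 of 104, 30.9 to 50.5%) and 36.5% for the mutant (171 of 468, 32.2 to 41.1%), again with overlapping intervals. Over the whole mutant list, promoters with mutant-only summits had 21.4% (509 of 2378, 19.8 to 23.1%) and those with shared mutant summits 60.7%. With both lists first cut at -log10 q of at least 10, mutant summits without a wild-type partner had 31.0%. Such summits may overlap a weaker wild-type peak. Within 50 bases of the summit a box was found for 44.0% of wild-type, 44.6% of shared mutant and 11.7% of mutant-only summits. The same window in the middle of all promoters gave 7.92%.

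Promoter sites with the box also had the larger mutant surplus. At 196 matched promoter sites with CAGGTG the median fold was 6.90 in wild type and 10.8 in the mutant (median log2 ratio -0.56). At 108 without it the medians were 5.58 and 7.18 (-0.23). Mutant-only summits with a box had a median fold of 6.12 and those without 5.52.

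Other motifs were searched the same way. Transcription factors of the ETS family are common at housekeeping and blood gene promoters. Their core CCGGAAG was in 34.6% of promoters with mutant-only summits, 25.9% of those with wild-type summits and 8.86% of all. Promoters without a summit but with the GC content of the middle range of mutant promoters had 10.2%. By rank, wild-type promoters went from 15.1% in ranks 1 to 500 to 38.6% in ranks 1501 to 2929. Mutant promoters had 29.1% in ranks 1 to 500 and 31.1% in ranks 8001 to 12037. The CRE palindrome TGACGTCA was in 6.79% of wild-type and 5.38% of mutant-only promoters against 1.79% of all. For the GATA motif AGATAA, bound by the blood GATA factors, the shares were 5.86%, 5.97% and 11.2%, with 5.74% at matched GC content. These are letter matches, not bound sites.

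Genes near the peaks were counted in 12 lists, a gene being near when a summit lay within 5 kb of its start, or of either end where the start was not known. Of 34614 genes, 5.90% were near a wild-type peak, 21.6% near a mutant peak and 6.36% near a mutant peak at equal list length. The lists were chosen with results of these data known, and no list was tested.

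Epithelial genes, the classic Snai1 targets, counted 5 of 30 near wild-type and 10 of 30 near mutant peaks, and 2 at equal length. Crb3, which organises apical polarity, had the strongest, with a fold of 14.7 in wild type and 34.1 in the mutant. The tight junction gene Cldn4 had 7.92 and 12.5, the junction gene Jup 6.63 and 7.03. The Cldn4 site given above as higher in wild type is another, 12563 bases from the start, with 14.6 in wild type and 5.45 in the mutant. At the protease gene St14 wild type was higher, 7.72 against 3.17. Among mesenchymal genes, 4 of 26 were near wild-type and 10 near mutant peaks, and 3 at equal length. The intermediate filament gene Vim had a fold of 13.2 in wild type and 11 in the mutant, the integrin gene Itgb1 9.37 and 12.5, and the receptor gene Tgfbr1 8.27 and 5.89.

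Of the lists of cell type genes, stem and progenitor factors had the largest share near wild-type peaks. Of 30 genes, 8 were near wild-type peaks, 15 near mutant peaks and 9 at equal length. The stem cell factor receptor Kit had a fold of 10.2 in wild type and 11.1 in the mutant, Ikzf2 9.78 and 8.03, and Erg, an ETS factor, 7.23 and 10.1. At Cbfa2t3, a corepressor, the peaks compared were 1 of wild type 3475 bases from the start (14.5) and 1 of the mutant 611 bases from it (23.7). These did not overlap each other. Only 1 peak per gene and list was compared, so each may overlap another peak of the other list. Erythroid and megakaryocytic genes counted 3 and 12 of 30, and 7 at equal length, led by the transferrin receptor Tfrc with 10.2 and 20.6. The platelet gene Itgb3 had 8 and 10.2. At Gp9, another, the wild-type peak (9.37) and the mutant peak (13.4) compared lay 446 and 1963 bases from the start, with the same limit as at Cbfa2t3. Myeloid genes counted 2 and 11 of 42, and 1 at equal length, with Cebpe at 6.75 and 15.1. Lymphoid genes counted 1 and 5 of 26, and 1 at equal length, with Zap70 at 5.92 and 7.64. Of 21 mast cell and basophil genes, 4 were near peaks of each list and 1 near a mutant peak at equal length, and Srgn, a granule proteoglycan, was near a wild-type peak alone (fold 5.81).

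Genes of enzymes that add or remove H3K4 methylation had the largest share near wild-type peaks of all 12 lists, with 8 of 24. The count was 15 for the mutant and 5 at equal length. Next to Kdm5a stood Ash2l, with a fold of 7.51 in wild type and 6.02 in the mutant, a core subunit of H3K4 methyltransferases, and Setd7 with 7.72 and 9.92. At Rbbp5, another such subunit, the wild-type peak (6.41) and the mutant peak (4.83) compared did not overlap each other. Other peaks at the gene were not compared. Men1 (6.35) and Cxxc1 (4.98) were near a wild-type peak alone and are named for being the only 2. In the Lsd1 complex list 1 of 16 genes, Gse1 (5.81 and 8.60), was near a wild-type peak and 6 near mutant peaks, 1 at equal length, among them the CoREST genes Rcor1, Rcor2 and Rcor3 (5.25 to 5.52). Neither list had a peak within 5 kb of Kdm1a or Gfi1. At Gfi1b the nearest mutant summit lay 4546 bases away (fold 4.67), and the nearest wild-type summit 81720 bases.

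Snai1 itself had a mutant peak 530 bases from its start (fold 4.83, rank 6618), and the nearest wild-type summit lay 40473 bases away. Both vectors carry Snai1 cDNA, and whether reads from the vector entered this peak was not tested.

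Housekeeping genes had the largest gap between the constructs. They counted 3 of 26 for wild type, 18 for the mutant and 8 at equal length. At Rps18, a ribosomal gene with no wild-type peak, the mutant fold was 10.7, and at Actb the folds were 7.38 and 10.5. Cell cycle genes counted 4 and 16 of 30, and 6 at equal length, with the inhibitor Cdkn1a at 5.24 and 9.49 and the kinase gene Cdk4 at 9.37 and 11.4. In p53 and apoptosis genes the counts were 3 and 12 of 20, and 1 at equal length. The apoptosis inducer Bbc3 had a mutant peak alone (11.7).

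The methylation that Lsd1 removes was high in start windows near peaks of every class and did not pass the test between the constructs. For H3K4me2, edgeR's quasi-likelihood F-test called 0 of 25742 windows (0% of windows tested), with 2548 at an unadjusted p under 0.05 and 71 called by DESeq2. For H3K4me1 it called 0 of 25728 (0%), with 1347 at an unadjusted p under 0.05 and 31 by DESeq2. The labels do not say whether the methylation replicates were separate cultures, so these p-values measure the spread between these libraries, which may be technical. Column totals of wild-type and mutant libraries were 9828505 to 18199945 reads for H3K4me2 and 4042976 to 8813537 for H3K4me1. As a check of the cells, mean H3K4me2 over the libraries of every construct exceeded IgG at 27 of 30 stem and progenitor genes. Erythroid and megakaryocytic genes counted 20 of 29, myeloid 17 of 42, and mast cell and basophil 8 of 22. Mesenchymal genes counted 8 of 26, epithelial 6 of 30 and lymphoid 2 of 26. A high share was not particular to stem and progenitor genes, with 29 of 30 cell cycle and 24 of 26 housekeeping genes.

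Windows were sorted by whether a summit lay within 1 kb of the gene's start. Over 987 genes with a shared peak, the median H3K4me2 CPM was 78.5, 83.6 and 81.7 in wild-type replicates 1 to 3 and 85.4, 72.0 and 73.2 in the mutant. Over 92 genes with a wild-type-only peak it was 79.9, 80.7 and 76.9 against 86.5, 69.0 and 69.1. Over 3871 genes with a mutant-only peak it was 74.9, 78.9 and 78.3 against 79.3, 68.2 and 69.5. Genes without a peak had 5.42, 4.37 and 4.59 against 4.72, 6.71 and 6.35. In each class with a peak, mutant replicate 1 was the highest and the other two mutant libraries the lowest, so the constructs overlapped.

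**Figure D5:**
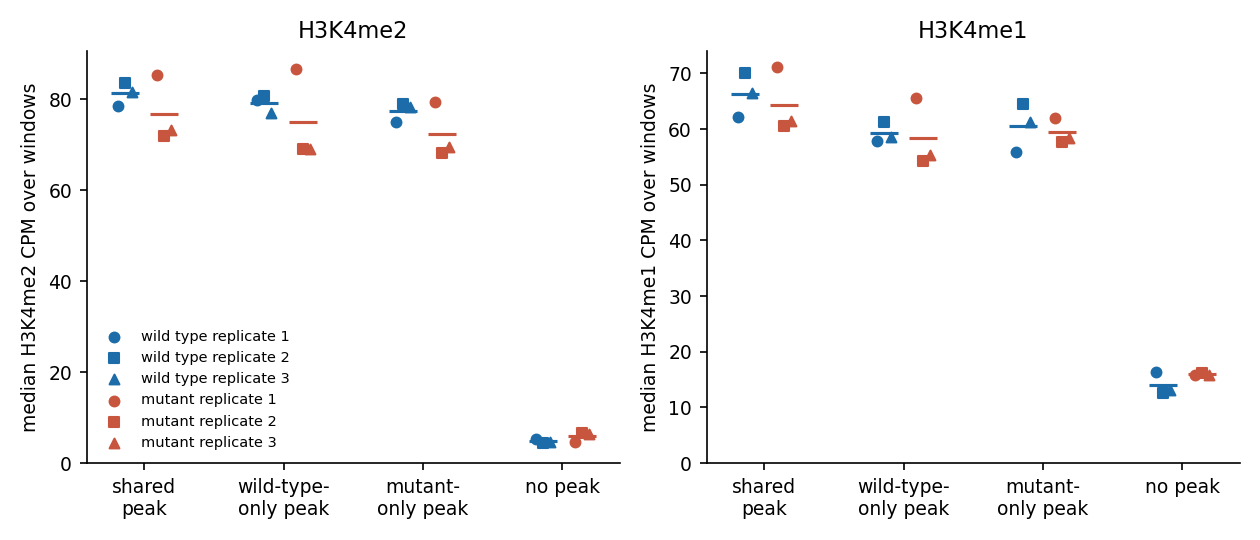
Median CPM of H3K4me2 (left) and H3K4me1 (right) over start windows, by the class of Snai1 peak within 1 kb (x axis); each symbol is a library and each line the mean of 3. Windows with any peak lie far above those without, and mutant replicate 1 stands above mutant replicates 2 and 3 in every class with a peak.

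The sign of the difference turned with the replicate. The median log2 ratio of wild type over mutant in H3K4me2 was 0.11 for shared, 0.13 for wild-type-only and 0.11 for mutant-only genes, against -0.04 over all windows. Within replicate 1 these were -0.08, -0.07 and -0.06, and within replicates 2 and 3 they were 0.24, 0.26 and 0.22. For H3K4me1 all libraries gave 0.06, 0.06 and 0.05, replicate 1 gave -0.15, -0.13 and -0.10, and replicates 2 and 3 gave 0.19, 0.22 and 0.17. In these constructs, replicates 2 and 3 differed by 1.18 to 2.30 times the counting variance and replicate 1 differed from them by 9.49 to 17.7 times. A test within them alone called 15021 H3K4me2 windows, 7699 higher and 7322 lower in wild type. Constructs and any feature of single cultures cannot be told apart there.

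Named peaks at starts showed the same spread. At Kdm5a, with 4.65 times the fold in the mutant, H3K4me2 CPM was 106, 103 and 111 in wild type and 115, 93.5 and 89.99 in the mutant (log2 difference 0.10 ± 0.12 SE, edgeR adjusted p = 0.67). The groups overlapped. At Gtpbp2, with a mutant peak alone, it was 134, 149 and 149 against 141, 112 and 111 (0.25 ± 0.12 SE, edgeR adjusted p = 0.505). At Fars2 it was 75.9, 83.5 and 89.3 against 80.4, 76.7 and 79.0, with overlap.

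Higher wild-type occupancy looked alike. At Tulp4 H3K4me2 CPM was 65.1, 87.8 and 70.1 in wild type and 76.6, 53.7 and 51.2 in the mutant (edgeR adjusted p = 0.512). At Scamp4 it was 43.6, 49.2 and 50.4 against 53, 45.2 and 45.3. At Arrb2, with a wild-type peak alone, it was 98.8, 119 and 108 against 116, 63.9 and 67.6. Mutant replicate 1 lay within or above the wild-type range at all 3 genes.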

How the data were processed

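Snai1 peaks were called by the authors with MACS2, and reads were aligned with Subread and counted with featureCounts (no versions given), all per the submitters' processing notes. The builds named there are GRCm38 and mm10. The deposited peak lists give a fold ratio over local background, a score, and -log10 of p and q, 1 list per construct. Whether inputs served as control is not given in the sources used here. The deposited counts are raw reads per gene in windows of 5 kb around starts, per the labels' table name, for 3 libraries per mark and construct.

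Members and lists were chosen with earlier results of these data known. Peaks overlapped when they shared at least 1 base and were ranked by -log10 q, then -log10 p and fold. Positions came from RefSeq tables of GRCm38.p6: starts of 27025 genes with a promoter sequence, and both ends of 7589 protein-coding or non-coding genes without one, so distances to those are not to a known start. Only promoters in the table were searched for motifs, and peaks elsewhere were not.

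Named peaks overlap no empty-vector peak: the 10 shared sites with the best mean rank, the 6 highest and 6 lowest fold ratios among pairs in the upper part of both lists, 8 peaks of each list alone by -log10 q, and up to 4 members per gene list. Each is named by the gene that holds it or lies nearest. Kdm1a, Snai1, Gfi1 and Gfi1b are given in any case. H3K4 values are shown for named genes with a peak at the start.

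Counts were tested per mark over all 3 constructs with edgeR 4.0.16 (quasi-likelihood, TMM, filterByExpr, Benjamini-Hochberg at 0.05, two-sided) in R 4.3.3, with DESeq2 1.42.0 as an alternative. Of 27095 rows, 20 without a read and 31 equal to an earlier row were left out. Empty-vector H3K4me1 replicates 2 and 3 differed by less than sampling noise and were counted as 1 sample. CPM are on TMM-scaled library sizes. Depth per library is the column total. Peak analysis used Python 3.11.15, pandas 2.3.3, numpy 2.4.6 and scipy 1.17.1. Both the recovery of fragment numbers and the count test were tested on simulated data.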

Additional observations from a re-analysis of the deposited data

How the results depend on the processing

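For the main results, 34 alternatives stayed within the main interval or near the main count, and 30 moved away from it. Values that moved are given below. Wild-type peaks overlapped by the mutant were 82.7% at -log10 q of at least 5 and 73.8% with summits within 100 bases. Mutant peaks overlapped by wild type were 19.8% at -log10 q of at least 10 and 18.0% with summits within 100 bases. Sharing at equal length was 46.5% with summits within 100 bases and 48.3% ranked by fold. The matched log2 ratio was -0.25 at -log10 q of at least 10 and -0.61 for sites in both lists at equal length, a cut that by construction removes sites with low mutant signal. Of wild-type, equal-length mutant and mutant-only peaks, 37.3%, 43.7% and 43.0% lay within 1 kb of a start. Within 5 kb these were 56.9%, 59.0% and 58.9%, within 250 bases 15.3%, 29.0% and 28.7%, and with promoter-table starts alone (chosen after seeing the data, as were the rescoring at wild-type scaling, fragments over mean coverage and E-box shares by threshold) 32.6%, 37.6% and 37.2%. Mutant-only peaks gave 45.9% with both lists first cut at -log10 q of at least 10, so that they may overlap a weaker wild-type peak. As those without a partner at equal length (a definition also chosen after seeing the data), they gave 48.0%.

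Windows called went from 0 to 71 with DESeq2, 12 with a replicate block, 2 with the compared constructs alone and 15021 in replicates 2 and 3 for H3K4me2, and to 31, 2, 0 and 10142 for H3K4me1. Leaving out 1 library gave 0 to 4289 for H3K4me2, with 247 without wild-type replicate 1 and 4289 without mutant replicate 1, and 0 to 211 for H3K4me1, with 2 and 211 for the same libraries. The cause was not tested. Deviations of log2 CPM from the construct mean were correlated between same-numbered wild-type and mutant libraries. The values were -0.07, -0.22 and 0.12 in H3K4me2 and 0.16, -0.08 and 0.25 in H3K4me1, so the replicate block rests on a number alone. Class medians turned negative in replicate 1 alone (H3K4me2 -0.079, -0.071 and -0.058, H3K4me1 -0.152, -0.129 and -0.104, in the order shared, wild-type-only, mutant-only), and the wild-type-only H3K4me1 median ranged from -0.018 without mutant replicate 2 to 0.227 without mutant replicate 1.

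The lists have no replicate, and peaks below the caller's thresholds are unknown, so a site in 1 list alone is not shown to be unbound in the other. Sequence away from promoters was not analysed here.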
